A study of Mus musculus with 4 samples.

Results

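The genes described here build the oxidative phosphorylation machinery of the mitochondrion, the respiratory chain and ATP synthase. They were chosen by symbol alone: names starting mt-Nd, mt-Co, mt-Cyt or mt-Atp, the Nduf genes of the a, b, c, s and v series, Sdha to Sdhd, and names starting Uqcr, Cox4 to Cox8 or Atp5. After 14 matching pseudogene names ending in -ps were left out, 104 of the 56953 genes in the deposited table met the rule. The mitochondrial genome encodes 13 of them and the nucleus 91. By complex, the nuclear genes divide into 42 for complex I, 4 for complex II, 8 for complex III, 19 for complex IV and 18 for complex V. Complexes were assigned by symbol, so Ndufa4 and Ndufa4l2 are counted with complex I for their names alone.

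Gene expression was measured in dorsal skin of wild-type C57BL/6J mice. A group of 2 samples received NEDD8i on the skin at 10 µM for 3 days, and a control group of 2 samples received DMSO, the solvent, over the same time. NEDD8i is known here only by that label, which refers to the ubiquitin-like protein NEDD8. Libraries were made with QuantSeq 3′ FWD, a method that primes on poly(A) tails and reads 1 tag near the 3′ end of a transcript. Full-thickness skin was collected, per the labels, although the extraction text speaks of cells. The labels do not say whether the 2 samples of a group came from separate mice, so p-values measure only how these samples vary, and that variation may be technical.

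Complex I takes electrons from NADH and complex II takes them from succinate. Complex III passes them to cytochrome c, complex IV hands them to oxygen, and complex V, the ATP synthase, uses the resulting proton gradient to make ATP. All complexes except complex II mix proteins from both genomes. The mitochondrial genome is transcribed from both strands as long precursors that are cut into mRNAs, tRNAs and ribosomal RNAs. Most of its genes lie on the plus strand of the reference and come from the heavy-strand promoters, while mt-Nd6 and several tRNAs lie on the minus strand and come from the light-strand promoter. They are called heavy-strand and light-strand genes below. Keratinocytes, the main cells of the epidermis, lose their mitochondria when they turn into cornified cells.

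Library totals ran from 5639791 to 8856572 reads, and ribosomal RNA (Rn18s-rs5 and the mitochondrial mt-Rnr1 and mt-Rnr2) took between 52.6% and 61.7% of them, which left 2287839 to 3654442 reads for all other genes. Levels are given as CPM, reads scaled to library size with TMM factors, and fold changes as log2 of NEDD8i over DMSO. DMSO replicate 1 stood apart: 13 hair shaft and inner root sheath genes took 2.02% of its reads outside ribosomal RNA, against 0.00361% to 0.125% in the other libraries. Keratinocyte markers took 1.83% to 3.29% in all 4 libraries, while 5 endothelial markers had only 2 to 19 reads per library. In bulk tissue, fewer cells of a type and less RNA per cell cannot be told apart.

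A few short stretches of sequence show where mitochondrial genes match a nuclear copy or each other. They come from the GENCODE M21 transcripts (GRCm38), are written 5′ to 3′, and are placed by the coordinates of the deposited table. The 13 mitochondrial genes have the same starts there as in GRCm38, while nuclear coordinates are taken to be GRCm39, since the submitters' processing notes name both builds and only 1 of the 91 nuclear members kept its GRCm38 start. Bases 622 to 681 of mt-Co2 (chrM:7634-7693, plus strand, coding sequence) and of the nuclear pseudogene Gm28661 (chr1:24653966-24654025, minus strand) are shown in full because they are the same letter for letter.
mt-Co2: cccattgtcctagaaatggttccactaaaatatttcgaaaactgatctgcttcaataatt
Gm28661: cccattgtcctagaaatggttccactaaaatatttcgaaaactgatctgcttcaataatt
Bases 847 to 906 of mt-Nd4 (chrM:11013-11072, plus strand) span the point where the chromosome 1 copy of this gene ends. Capitals mark the bases beyond that copy.
mt-Nd4: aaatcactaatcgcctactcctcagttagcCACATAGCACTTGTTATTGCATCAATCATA
The last 60 bases of mt-Nd5 (chrM:13506-13565, plus strand) and of mt-Nd6 (chrM:13552-13611, minus strand) are shown because the 2 genes meet tail to tail. Capitals mark the 14 bases where they overlap on opposite strands.
mt-Nd5: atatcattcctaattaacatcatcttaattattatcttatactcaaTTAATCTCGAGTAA
mt-Nd6: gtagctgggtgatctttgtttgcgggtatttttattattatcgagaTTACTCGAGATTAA

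Of the 13 mitochondrial-encoded genes, 8 had enough reads to be tested and 5 were nearly unread. mt-Co2 and mt-Co3, catalytic-core subunits of complex IV, had 0, 3, 1 and 3 reads and 1, 1, 0 and 0 reads, in the order DMSO replicates 1 and 2 and then NEDD8i replicates 1 and 2, an order kept below. mt-Atp6, the proton channel subunit of ATP synthase, had 2, 2, 0 and 0 reads. mt-Atp8, its small partner, and mt-Nd4l, a membrane subunit of complex I, had 0 reads in all 4 libraries, where a count of 0 allows up to 3 reads. These genes lie next to each other. The 11 genes from mt-Ts1 to mt-Nd4l (mt-Nd3 included) together held 35, 61, 27 and 41 reads, whereas mt-Co1, just before them, had 4920 to 10600 reads per kilobase of gene and mt-Nd4, just after them, 27100 to 61900. No mt-Co2 library exceeded 4.39 reads per kilobase. The empty stretch was present in both groups, and the values of these 5 genes allow no comparison between them.

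The nearly unread genes other than mt-Atp8 have annotated copies of nearly their whole length in the nucleus. Copies of mt-Nd4l, mt-Nd3, mt-Co3, mt-Atp6, mt-Co2 and parts of mt-Nd4 and mt-Co1 lie between 24650616 and 24655278 on the minus strand of chromosome 1. Over 681 bases of mt-Co2, 783 of mt-Co3, 678 of mt-Atp6, 342 of mt-Nd3 and 294 of mt-Nd4l, the copies matched with 0 differences. The copy of mt-Co1 covers its bases 1063 to 1545 with a single difference, A1066T (the mitochondrial base first, counted from 1 at the start of the gene). The copy of mt-Nd4 covers bases 1 to 876 of 1378 and stops before the 3′ end that a tag method reads. When every run of 50 bases in a gene was searched in all other annotated transcripts, 97.99% to 100% of the runs in mt-Co2, mt-Co3, mt-Atp6, mt-Nd3 and mt-Nd4l were found elsewhere. The share was 62.23% for mt-Nd4 but 0% within its last 300 bases, and 0% throughout for mt-Nd1, mt-Cytb, mt-Nd6 and mt-Atp8. For mt-Co1 it was 51.14% overall and 100% within the last 300 bases. The copies themselves held 0 to 22 reads per library. The sources used here do not say how the counting treated a read that fits several genes. mt-Atp8 shares no such run with another annotated transcript, although 21.1% of it lies inside mt-Atp6 on the same strand. It lies between mt-Co2 and mt-Atp6, whose copies lie at 24653966 to 24654646 and 24653055 to 24653732 on chromosome 1. The search covered annotated transcripts only, so whether the sequence between those copies matches mt-Atp8 was not tested.

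**Figure D1:**
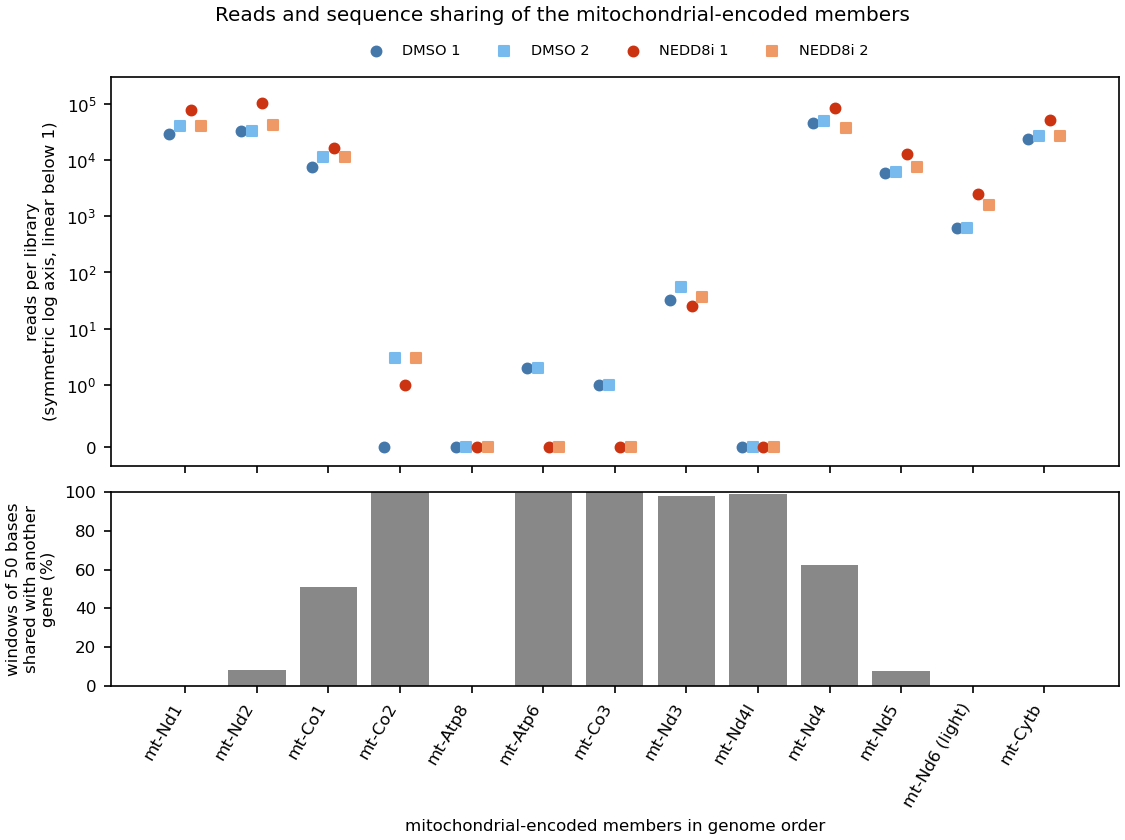
Upper panel: reads per library (symmetric log axis, linear below 1) of the 13 mitochondrial-encoded genes in genome order, with circles for replicate 1 and squares for replicate 2 of DMSO (blue) and NEDD8i (red and orange). Lower panel: the percentage of 50-base runs in each gene that occur in another annotated transcript. mt-Co2, mt-Atp6, mt-Co3 and mt-Nd4l had at most 3 reads in any library and shared at least 98.79% of their runs, while mt-Atp8 had 0 reads and shared 0%.

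Across the 8 mitochondrial genes that could be tested, none passed. The threshold was a Benjamini-Hochberg adjusted p of 0.05 over 11388 genes in the quasi-likelihood test of edgeR, and 0.782% of those genes passed it. At an unadjusted p under 0.05 there was 1, mt-Nd6, against 16.5% of all tested genes, and DESeq2 called mt-Nd6 alone and limma-voom called 0. Those tools called 3.64% and 0.237% of all genes. The median log2 fold change was 0.28, with 6 positive and 2 negative, beside 0.00 over all tested genes. It depended on the libraries kept, falling to -0.23 without NEDD8i replicate 1 and reaching 0.68 without NEDD8i replicate 2.

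The complex I subunits mt-Nd1, mt-Nd2, mt-Nd4 and mt-Nd5 belong to its proton-pumping membrane arm. mt-Nd2 was at 4710.7 and 5941.3 CPM in DMSO and 13003.1 and 4970.8 CPM after NEDD8i. NEDD8i replicate 1 alone was high, and NEDD8i replicate 2 fell between the DMSO libraries (log2 fold change 0.75, SE 0.48, edgeR adjusted p = 0.494). mt-Nd1 was at 4182.0 and 7436.0 CPM against 9640.9 and 4754.0 CPM (0.31, SE 0.46, edgeR adjusted p = 0.802). mt-Nd4 was at 6431.5 and 8853.4 CPM against 10550.1 and 4477.2 CPM (-0.02, SE 0.46, edgeR adjusted p = 0.986). For each of these the groups overlapped and NEDD8i replicate 1 held the highest value. mt-Nd5 (log2 fold change 0.37), mt-Cytb of complex III (0.25) and mt-Co1, the oxygen-binding subunit of complex IV (0.13), followed the same course, with edgeR adjusted p between 0.693 and 0.914. mt-Nd3, a complex I subunit, had a negative value on 32 and 55 reads against 25 and 37, or 4.56 and 9.92 against 3.09 and 4.43 CPM (log2 fold change -0.93, SE 0.52, edgeR adjusted p = 0.424). In CPM both its NEDD8i libraries lay below both DMSO libraries, as did those of 22.9% of all tested genes. It is also 1 of the genes copied in the nucleus over nearly their whole length.

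mt-Nd6, the complex I subunit encoded on the light strand (ENSMUSG00000064368.1, chromosome M, 13552 to 14070), was the one mitochondrial-encoded subunit with both NEDD8i libraries above both DMSO libraries, a position held by 25.0% of all tested genes. It had 611 and 619 reads in DMSO and 2464 and 1577 after NEDD8i, or 87.0 and 111.7 against 304.9 and 188.8 CPM. The group means were 99.4 ± 17.5 and 246.8 ± 82.1 CPM (SD, n = 2 each). The log2 fold change was 1.31 (SE 0.34), with an edgeR unadjusted p of 0.00431 and an adjusted p of 0.119. The call turned on the tool and the libraries. The adjusted p was 0.0145 in DESeq2, 0.00523 in edgeR with no filter on low counts, 0.0109 without DMSO replicate 1 and 0.00191 without DMSO replicate 2. Those fits called 3.64%, 2.97%, 10.4% and 10.7% of all their genes, and the fits with 1 DMSO library have no spread within that group. Under the other alternatives run the adjusted p lay between 0.0804 and 0.785, and the log2 fold change stayed positive, from 0.94 without NEDD8i replicate 1 to 1.60 without NEDD8i replicate 2.

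Relative to the other mitochondrial mRNAs, mt-Nd6 held a larger share of reads in both NEDD8i libraries. It took 0.421% and 0.369% of all reads on the 13 genes in DMSO (95% Wilson intervals 0.389% to 0.455% and 0.341% to 0.399%), and 0.699% and 0.95% after NEDD8i (0.672% to 0.727% and 0.905% to 0.998%). These intervals cover counting error only. This share does not depend on library scaling, since numerator and denominator come from the same library. The means were 0.395% and 0.824% (exact permutation test, two-sided p = 0.333, the smallest that 2 against 2 allows). Shares were computed for 7 genes, and those of mt-Nd2 and mt-Nd4 also did not overlap. In CPM, which is another measure, the groups did not overlap in 47.9% of all tested genes. The shares are parts of the same total, so they are not independent of each other. mt-Nd2 went from 22.8% and 19.6% to 29.8% and 25.0%, and mt-Nd4 from 31.1% and 29.3% to 24.2% and 22.5% (exact permutation p = 0.333 for each). The other 4 shares overlapped (exact permutation p between 0.667 and 1), for example 16.2% and 15.9% against 14.9% and 16.3% for mt-Cytb. In base composition mt-Nd6 differs from the heavy-strand mRNAs, with 28.1% G against 5.9% to 16.1%, 22.2% A against 29.5% to 40.7%, and a longest run of A of 3 bases against 4 to 8. How the mt-Nd6 reads were primed was not tested, so these values give captured reads and not the mRNA level.

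Most tRNAs of the light strand had positive values as mt-Nd6 did. This grouping by strand was made after the values were seen, so it is described without a test of its own. The mitochondrial genome has 9 light-strand genes, and 6 could be tested. All 6 had a positive log2 fold change (5 or 6 of the 6 under every alternative run), with a median of 1.55, and 5 of them had an edgeR unadjusted p under 0.05 (16.5% of all tested genes did), but 2 without NEDD8i replicate 1. None passed after adjustment (0.782% of all tested genes did), while DESeq2 called 4 (3.64%) and limma-voom 0 (0.237%). With no filter on low counts, without DMSO replicate 1 and without DMSO replicate 2 edgeR called 4 each time, in fits that called 2.97%, 10.4% and 10.7% of all genes. mt-Tq, the glutamine tRNA, had 151 and 186 reads in DMSO and 805 and 588 after NEDD8i (1.63 on the log2 scale, SE 0.34, edgeR adjusted p = 0.0691). It passed with the replicate number as a block (adjusted p = 0.0497 in edgeR, a fit that called 2.54% of all genes) and with crossed numbers (0.00568, 4.33%). mt-Te, the glutamate tRNA that lies beside mt-Nd6, had 13 and 17 against 131 and 63 (2.28, adjusted p = 0.0918, and 0.0049 with crossed numbers), and mt-Tp, the proline tRNA, 262 and 248 against 1350 and 513 (1.48, adjusted p = 0.156). mt-Ta, the alanine tRNA, had 11 and 15 against 22 and 13 and a log2 fold change of 0.01. mt-Tc, another light-strand tRNA, had 2 and 2 against 18 and 18 (2.71, edgeR unadjusted p = 0.0124, adjusted p = 0.174). Its DMSO counts are under the minimum count of 10, so it passed the filter on low counts only through NEDD8i. It is among the 6 positive genes and the 5 with an unadjusted p under 0.05. The 15 tested genes of the heavy strand had a median of 0.31, and 0 of them reached an unadjusted p under 0.05. Expressed per 1000 reads on the heavy-strand mRNAs, light-strand tRNA reads numbered 3.04 and 2.8 in DMSO and 6.64 and 7.27 after NEDD8i, and heavy-strand tRNA reads 1.67 and 2.25 against 1.5 and 2.86. Without NEDD8i replicate 1 the light-strand median was 1.16, and without NEDD8i replicate 2 it was 1.93. Of 5 tested fibroblast markers, 4 were higher at an edgeR unadjusted p under 0.05 (8.62% of all tested genes were). In 4 both NEDD8i libraries lay above both DMSO libraries (25.0% of all tested genes). Their median log2 fold change was 2.35, and Dpt passed (3.29, edgeR adjusted p = 0.0446). Reads summed over all 7 fibroblast markers overlapped between the groups, at 390 and 39 in DMSO and 294 and 607 after NEDD8i. The part of these markers in the mt-Nd6 and light-strand values was not tested. Mature tRNAs carry no poly(A) tail of the kind that primes such a library, so these reads measure what was captured and not the tRNA level.

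**Figure D2:**
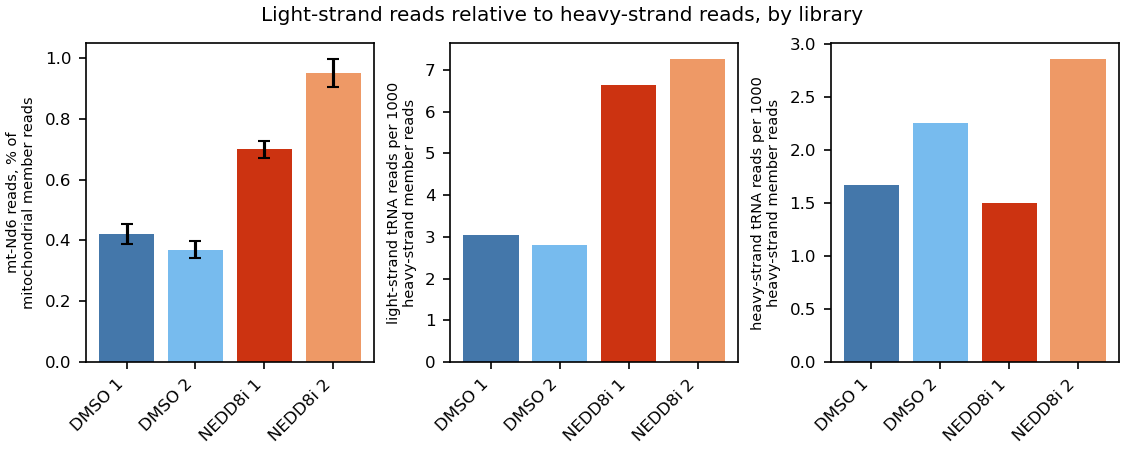
Bars show 1 library each. Left: mt-Nd6 reads as a percentage of all reads on the 13 mitochondrial-encoded genes, with 95% Wilson intervals. Middle and right: reads on light-strand and heavy-strand tRNAs per 1000 reads on the heavy-strand mRNAs, a grouping by strand made after the values were seen. In the left and middle panels both NEDD8i bars stand above both DMSO bars (0.699% and 0.95% against 0.421% and 0.369%; 6.64 and 7.27 against 3.04 and 2.8), while in the right panel the groups overlap.

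The 91 nuclear genes differed little between the groups. Of the 78 that passed the filter on low counts, 0 rose and 0 fell at an adjusted p of 0.05 in edgeR (0.782% of all tested genes did), 0 reached an unadjusted p under 0.05 (16.5% of all tested genes), and DESeq2 and limma-voom called 0. The median log2 fold change was 0.10, with the middle of the distribution between -0.10 and 0.25 (quartiles), against -0.47 to 0.44 over all tested genes. In 74 of the 78 the log2 fold change was under 0.5 in size, as it was in 6182 of the 11388 tested genes. The median SE was 0.332 for these genes and 0.42 over all, so the nuclear set was also measured with less error. A difference as small as most of these could not be told from 0 with 2 libraries per group. Both NEDD8i libraries lay above both DMSO libraries in 9 genes and below them in 3, where 25.0% and 22.9% of all tested genes did so. Positive values outnumbered negative ones by 48 to 30, but library sizes without TMM turned this to 22 of 78 positive with a median of -0.13. That scaling moved the median of all genes by -0.22. The direction also turned without DMSO replicate 2 (33 of 78 positive, median -0.09) and without NEDD8i replicate 1 (35 of 78, -0.05), while 66 of 78 were positive without DMSO replicate 1 (0.39).

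**Figure D3:**
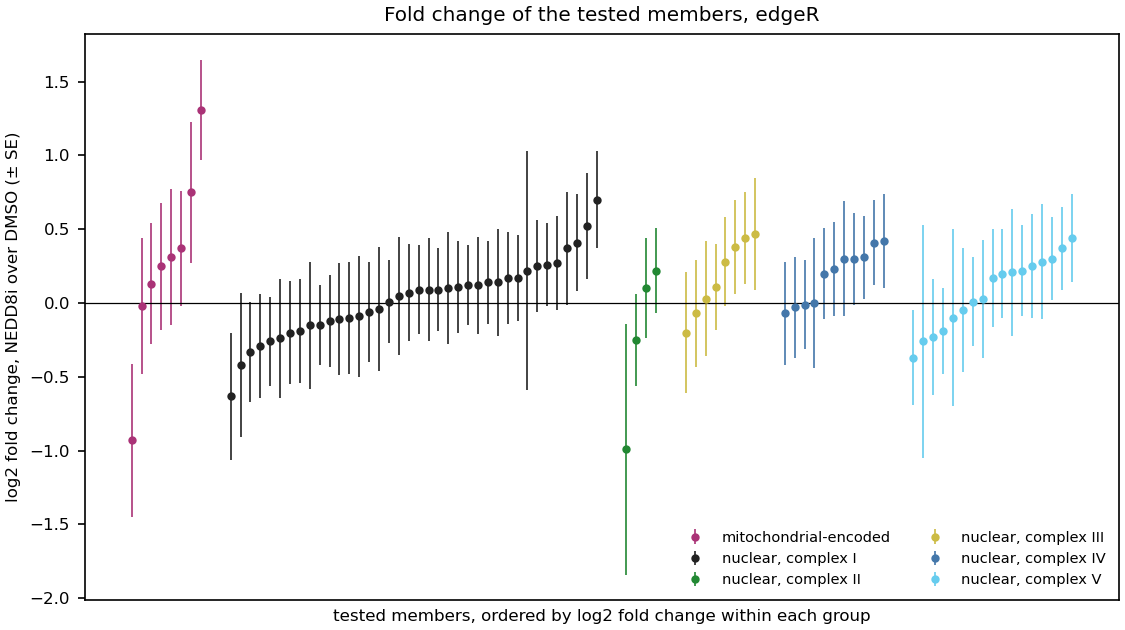
Log2 fold change (NEDD8i over DMSO, edgeR) of the 86 tested genes, with bars of 1 SE, ordered by value within the mitochondrial-encoded genes and within each nuclear complex. Most points lie within 0.5 of the zero line; mt-Nd6 at 1.31 and Sdhb at -0.99 are the ends of the range.

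Complex I genes clustered around 0. The median over 38 tested nuclear genes was 0.08, with 22 positive and 16 negative. Ndufb2, an accessory subunit of the membrane arm (ENSMUSG00000002416.14, chromosome 6, 39569508 to 39580316, plus strand), had the highest value. It had 113 and 84 reads in DMSO and 241 and 174 after NEDD8i, or 15.6 ± 0.661 and 25.3 ± 6.36 CPM (SD, n = 2 each). The groups did not overlap, and the estimate of 0.70 on the log2 scale (SE 0.33) had an adjusted p of 0.339 in edgeR. Of the last 300 exonic bases of Ndufb2, 48.7% lie in exons of Braf on the opposite strand. At its 3′ end 38.65% of the 50-base runs occur in Braf. Whether Braf reads entered this count was not tested. Ndufb8, a membrane-arm subunit with the highest mean log2 CPM among nuclear complex I genes, had 554, 447, 824 and 647 reads (0.17, SE 0.29, edgeR adjusted p = 0.829).

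The Ndufs and Ndufv genes, which include the nuclear-encoded catalytic core that binds NADH and carries the iron-sulfur clusters, had a median of -0.19 over 11 tested genes, 4 positive and 7 negative. The mostly accessory Ndufa, Ndufb and Ndufc genes had a median of 0.09 over 27, 18 positive and 9 negative. The difference between these series was not tested. Of the other genes counted with complex I, groups did not overlap for Ndufa4l2 (0.41) and Ndufa5 (0.26), higher, and Ndufc1 (-0.15) and Ndufs7 (-0.33), lower. Their edgeR adjusted p lay between 0.594 and 0.839, and groups did not overlap in 47.9% of all tested genes. Ndufs5 was read only 29, 3, 20 and 26 times, and 54.58% of the 50-base runs at its 3′ end occur in another transcript. Ndufa4l2 is a relative of Ndufa4 known to be induced by low oxygen. It had 115 and 110 reads against 226 and 168, and Ndufa4 had 239 and 100 against 327 and 227 (0.37, edgeR adjusted p = 0.685).

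Complex II has 4 genes and no mitochondrial-encoded one. Sdha, which holds the flavin and oxidises succinate, had 228, 159, 315 and 271 reads (0.22, SE 0.29, edgeR adjusted p = 0.76). Sdhc and Sdhd, the membrane anchors, had log2 fold changes of -0.25 and 0.10 (edgeR adjusted p = 0.754 and 0.916). Sdhb, the iron-sulfur subunit (ENSMUSG00000009863.15, chromosome 4, 140688514 to 140706504, plus strand), was uneven within DMSO, at 74.3 CPM in replicate 1 and 13.7 CPM in replicate 2, and stood at 28.2 and 16.3 CPM after NEDD8i. The estimate was -0.99 on the log2 scale with an SE of 0.85 (adjusted p = 0.649 in edgeR). The sign rested on 1 library: the value was 0.68 without DMSO replicate 1 and -1.72 without DMSO replicate 2.

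Complex III gave a median of 0.19 over its 8 nuclear genes, 6 positive and 2 negative. The groups overlapped in every one, whereas they did not in 47.9% of all tested genes. Uqcrh, the hinge protein, had 1087, 883, 1448 and 1327 reads and was at 0.11 on the log2 scale (SE 0.29, edgeR adjusted p = 0.897). Uqcrq, a small membrane subunit, had the highest value, on 346 and 142 reads against 508 and 345 (0.47, SE 0.38, edgeR adjusted p = 0.596), and was at 1.01 without DMSO replicate 1. Uqcrc2, a core protein, had the lowest at -0.20, on 457, 170, 426 and 259 reads. Its 3′ end lies wholly within exons of Pdzd9 on the opposite strand. For genes placed like that, 54.6% of 507 still had 100 or more reads over the 4 libraries together. The share was 40.0% of genes with no overlap and 5.3% of 209 with a same-strand overlap. Only genes with simple symbols were counted, and numbered Gm names and Mir names were left out.

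Complex IV had the highest median of the nuclear groups, 0.23 over 11 tested genes, 7 positive and 4 negative. Cox6c (ENSMUSG00000014313.16, chromosome 15, 35932122 to 35938392, minus strand), a small subunit of the enzyme's outer shell, went from 279.4 and 207.0 CPM to 360.8 and 288.7 CPM. The lower NEDD8i value was only just above the higher DMSO value (means 243.2 ± 51.2 and 324.7 ± 51.0, SD, n = 2 each; log2 fold change 0.42, SE 0.32, edgeR adjusted p = 0.574). Cox7b had 552 and 325 reads against 742 and 761 (0.41, SE 0.29, edgeR adjusted p = 0.533), and Cox6a1 460 and 308 against 645 and 592 (0.31, edgeR adjusted p = 0.636), again without overlap in CPM. Groups did not overlap in 47.9% of all tested genes. Cox5b, at -0.07, had the lowest value in complex IV.

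For the complex IV subunits that exist in several forms, reads fell on the widely expressed form in all 4 libraries. Cox4i1 had 450, 251, 575 and 455 reads, while Cox4i2, the form typical of lung and low oxygen, had 0. Cox6a1 had 308 to 645 reads, and its heart and skeletal muscle form Cox6a2 had 1, 0, 5 and 8. Cox7a2 had 498, 242, 593 and 512 reads, and its muscle form Cox7a1 had 4, 0, 1 and 1. Cox8a had 196, 83, 235 and 116 reads, the muscle and brown fat form Cox8b had 3, 1, 3 and 0, and the testis form Cox8c had 0. Cox6b1 had 286 to 714 reads, and its testis form Cox6b2 had 0 to 2. These restricted forms were too low to test. The skeletal muscle markers beside which Cox6a2 may be read, 12 genes in all, had 221, 221, 328 and 475 reads. The 5 brown fat markers together had 179, 96, 254 and 354 reads, although Ucp1 among them had 0. The part of these markers in the Cox6a2 and Cox8b counts was not tested. These 5 common forms had log2 fold changes between 0.00 (Cox8a) and 0.31 (Cox6a1).

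Complex V had a median of 0.17 over 17 tested genes, 11 positive and 6 negative. Atp5k, the membrane subunit e that helps the enzyme pair into dimers (ENSMUSG00000050856.17, chromosome 5, 108581110 to 108582314, minus strand), was at 134.7 and 173.9 CPM in DMSO and 205.4 and 214.5 CPM after NEDD8i. The groups did not overlap, with means of 154.3 ± 27.7 and 209.9 ± 6.44 CPM (SD, n = 2 each; log2 fold change 0.44, SE 0.30, edgeR adjusted p = 0.519). Atp5o (0.37) and Atp5c1, the rotating gamma subunit (0.30), were also higher without overlap, and Atp5a1, a catalytic-head subunit (-0.19), lower. Of all tested genes, 47.9% had groups that did not overlap. Atp5h, a peripheral stalk subunit, had the lowest value at -0.37 on 454 and 219 reads against 349 and 315 (edgeR adjusted p = 0.634). Atp5e was at 0.28, and at 0.98 without DMSO replicate 1. Atpif1, the natural inhibitor of this enzyme, which the naming rule does not cover, had 656 and 482 reads against 535 and 523 (-0.49, SE 0.27, edgeR adjusted p = 0.425).

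What varied most within these genes was the library, and not along the groups. Reads on the mitochondrial-encoded genes made up 5.14% and 7.33% of all reads outside ribosomal RNA in DMSO and 9.65% and 4.91% after NEDD8i. Reads on the nuclear genes made up 1.1% and 0.79%, and 1.03% and 0.919%. The mitochondrial share was thus highest and lowest in the 2 NEDD8i libraries, and the nuclear share was highest and lowest in the 2 DMSO libraries. The ratio of mitochondrial to nuclear reads was 4.67 and 9.27 with DMSO, and 9.41 and 5.34 with NEDD8i. Replicates of 1 group therefore lay farther apart than the groups. The nuclear genes moved together: 47 of the 78 were lowest in DMSO replicate 2 and 22 in NEDD8i replicate 2, while 36 were highest in NEDD8i replicate 1 and 34 in DMSO replicate 1. Their median deviations from each gene's own mean, in log2 CPM, were 0.19, -0.28, 0.25 and -0.09. Over the 7 tested heavy-strand mRNAs they were -0.37, 0.28, 0.59 and -0.37, a different order. Over the 6 light-strand genes they were -0.97, -0.51, 1.05 and 0.40, the one set of these 3 in which the groups separated. That set was formed after the values were seen, and it includes mt-Tc, which passed the filter only through NEDD8i. The separation is therefore a description and not a test.

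**Figure D4:**
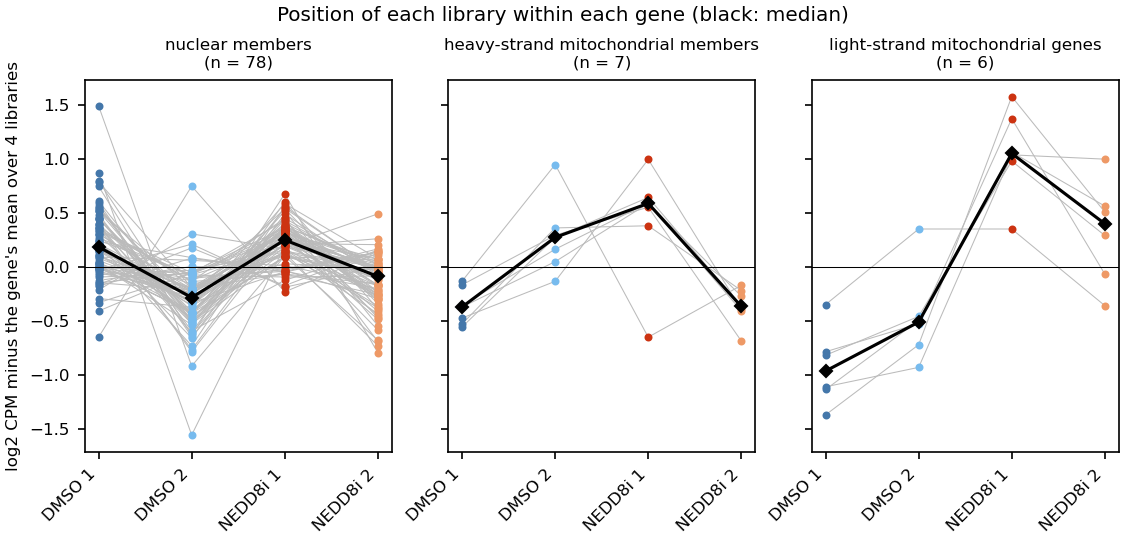
Each grey line is 1 gene and each point its log2 CPM in 1 library minus its mean over the 4 libraries; black diamonds are medians, and the lines join libraries only to follow a gene. Nuclear genes (n = 78) were high in both replicates 1, and heavy-strand mRNAs (n = 7) were high in DMSO replicate 2 and NEDD8i replicate 1. Light-strand genes (n = 6) had median deviations of -0.97 and -0.51 with DMSO, and 1.05 and 0.40 with NEDD8i. The light-strand set was formed after the values were seen.

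Several measures differed between the same libraries. The 2 mitochondrial ribosomal RNAs took 19.5%, 25.6%, 33.1% and 30.3% of all reads, and there were 8.01, 8.59, 8.32 and 16.1 of their reads per read on a mitochondrial mRNA. These heavy-strand genes, mt-Rnr1 and mt-Rnr2, had log2 fold changes of 0.62 and 0.70 (edgeR adjusted p = 0.523 and 0.466). In CPM both NEDD8i libraries lay above both DMSO libraries for each, as in 25.0% of all tested genes. Adipocyte markers (8 genes) had 513, 16, 88 and 41 reads, red cell markers (5 genes) 4339, 936, 5251 and 354, fibroblast markers (7 genes) 390, 39, 294 and 607, and hair shaft genes 56993, 110, 132 and 4235. The red cell and adipocyte reads, like the nuclear oxidative phosphorylation genes, were higher in both replicates 1. Without the hair shaft list the medians were the same as with it. Whether any of these had a part in the library pattern was not tested.

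Other nuclear genes of mitochondrial function, taken from 11 lists that the symbol rule does not cover, give the setting. Of 209 tested genes, 1 passed the edgeR threshold, higher (0.667% of all tested genes did), and the median was 0.21 with 145 positive. It was Ndufaf4, an assembly factor of complex I (ENSMUSG00000028261.14, chromosome 4, 24898083 to 24905001, plus strand). It had 84 and 87 reads in DMSO and 358 and 405 after NEDD8i, or 12.0 and 15.7 against 44.3 and 48.5 CPM. The replicates lay close together and the groups far apart (13.8 ± 2.64 and 46.4 ± 2.96 CPM, SD, n = 2 each; log2 fold change 1.75, SE 0.31, edgeR adjusted p = 0.0446). DESeq2 also called it (0.00102), whereas limma-voom (0.085), library sizes without TMM (0.0678), RLE factors (0.0507), a fit without the robust option (0.0732), a fit without the 3 ribosomal RNA genes (0.0502) and fits without NEDD8i replicate 1 (0.187) or without NEDD8i replicate 2 (0.221) did not. The fits named here called 3.64% (DESeq2), 0.237%, 0.413%, 0.711%, 0.421%, 0.676%, 0.368% and 0.387% of all genes, in that order. The fit with the replicate number as a block (2.54% of all genes) and the one with crossed numbers (4.33%) kept the call. Over all alternatives run the log2 fold change lay between 1.55 and 1.97. The other 14 tested complex I assembly factors did not pass, and Ndufaf2 (0.61) and Ndufaf8 (0.04) are examples. Of the 38 tested nuclear genes counted with complex I, 0 passed. Of the fibroblast markers Dpt passed as Ndufaf4 did, and DESeq2 also called Col1a2 and Col3a1; their part in the Ndufaf4 value was not tested.

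Assembly factors of the other complexes did not pass in edgeR, DESeq2 or limma-voom. Complex IV had 22 tested, 2 of them higher at an unadjusted p under 0.05 (8.62% of all tested genes were), with a median of 0.15. Sco2, a copper chaperone for complex IV, had 22 and 14 reads against 75 and 54 (1.46, edgeR adjusted p = 0.174), and was at 1.62 without DMSO replicate 1. The assembly lists of complexes II, III and V had 4, 5 and 4 tested genes, 0 at an unadjusted p under 0.05, and medians of 0.02, 0.32 and 0.49. Named from them were Sdhaf2 (0.47), which helps attach the flavin to Sdha, Uqcc2 (0.32) and Ttc19 (0.75) for complex III, and Tmem70 (0.84) for ATP synthase, with edgeR adjusted p between 0.352 and 0.724. Coa3, another complex IV factor, was at -0.37.

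Of the mobile carriers and coenzyme Q genes, 0 of 19 passed in any of the 3 tools and 2 were higher at an unadjusted p under 0.05 (8.62% of all tested genes were). Cycs, cytochrome c itself, had 113 and 73 reads against 221 and 246 (0.95, SE 0.31, edgeR adjusted p = 0.176). It was at 1.1 without DMSO replicate 1. Both its NEDD8i libraries lay above both DMSO libraries, as did those of 25.0% of all tested genes. Gpd2, the glycerol-3-phosphate dehydrogenase that feeds electrons to coenzyme Q from the cytosolic side, had 184 and 191 against 538 and 534 (1.11, SE 0.29, edgeR adjusted p = 0.117). It passed with no filter on low counts (edgeR adjusted p = 0.0363, a fit that called 2.97% of all genes), and was at 1.33 without DMSO replicate 2. Of 74 mitochondrial ribosomal protein genes, which make the ribosome that translates the 13 mitochondrial mRNAs, 0 passed in edgeR or limma-voom, DESeq2 called Mrps6 alone, and 15 were higher and 0 lower at an unadjusted p under 0.05 (8.62% and 7.87% of all tested genes were). The number at an unadjusted p under 0.05 was 2 without TMM, 3 without NEDD8i replicate 1 and 4 without NEDD8i replicate 2. Adjusted calls numbered 7 without DMSO replicate 1 and 3 without DMSO replicate 2, fits that called 10.4% and 10.7% of all genes. Their median was 0.26, with 52 positive. Mrps6 had 73 and 55 reads against 254 and 201 (1.45, SE 0.33, edgeR adjusted p = 0.0837, but 0.0436 with the replicate block and 0.0411 with crossed numbers). Those 2 fits called 2.54% and 4.33% of all genes. Mrpl12 was at 0.77 (edgeR adjusted p = 0.261). Library sizes without TMM left 39 of the 74 positive with a median of 0.05, so the number of positive values depends on the scaling. The median over all tested genes was -0.22 with that scaling and 0.00 in the main fit.

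Factors of mitochondrial transcription and replication numbered 24 tested, 0 of them past any threshold in the 3 tools or at an unadjusted p under 0.05 (median 0.21). Tfam, which packs mitochondrial DNA and starts transcription from both promoters, had 149 and 101 reads against 172 and 204 (0.21, edgeR adjusted p = 0.791). Mtpap, the mitochondrial poly(A) polymerase, was at 0.64 (edgeR adjusted p = 0.452). Biogenesis regulators had a median of 0.42 over 12 tested, with 0 called in the 3 tools and 2 higher at an unadjusted p under 0.05 (8.62% of all tested genes were). They were Pprc1, a coactivator related to Ppargc1a, and Ppard, a nuclear receptor for fatty acids, which had 69 and 101 reads against 223 and 406 (1.45, edgeR adjusted p = 0.138). Ppard passed in edgeR with no filter (adjusted p = 0.00283), with the replicate block (0.0337) and with crossed numbers (0.0334). Those fits called 2.97%, 2.54% and 4.33% of all genes. The log2 fold change of Ppard ran from 0.96 without NEDD8i replicate 2 to 1.97 without DMSO replicate 2. Yy1, a transcription factor, was at 0.20, and Ppargc1a itself had only 4 to 13 reads. Tricarboxylic acid cycle genes, 18 tested, had a median of 0.25, with 0 called in the 3 tools and 1 higher at an unadjusted p under 0.05, Pdhb of pyruvate dehydrogenase (0.81, edgeR adjusted p = 0.262). Mdh2, the malate dehydrogenase of the cycle, was at 0.54 (edgeR adjusted p = 0.42). Among 13 carriers and channels of the inner membrane 0 were called in the 3 tools, and 1 was lower at an unadjusted p under 0.05 (7.87% of all tested genes were). It was Ucp2, an uncoupling-protein family member, with 119 and 67 reads against 65 and 42 (-1.15, SE 0.41, edgeR adjusted p = 0.206). Slc25a5, the common ADP/ATP carrier, was at 0.10.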

How the data were processed

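For 4 QuantSeq 3′ FWD libraries a single table of gene counts, not normalized, was deposited by the authors, in the column layout of featureCounts, per the file headers. The submitters' processing notes name STAR, featureCounts, DESeq2, GRCm38 and GRCm39; versions, strand setting and the treatment of reads that fit several genes are not stated in the sources used here. Each of the 4 sample columns was matched to its sample by name, and 0 were left unused.

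Counts as deposited were tested in R 4.3.3 with edgeR 4.0.16 over the whole table: TMM factors, filterByExpr (minimum count 10, minimum total 15; 11388 genes kept), robust quasi-likelihood F test on the group alone, Benjamini-Hochberg adjustment, threshold 0.05. CPM used TMM-scaled library sizes, and log2 CPM a prior count of 2. The SE is the log2 fold change divided by the root of F. A floor of 3 counts was 0.359 to 0.541 CPM. The common dispersion of 0.12 is a biological coefficient of variation of 34.6%. Shares of mitochondrial reads were compared with exact permutation tests.

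Sequence sharing was searched with exact runs of 50 bases (and 100) over all GENCODE M21 transcripts, along whole mitochondrial genes and the last 300 bases of nuclear ones. Of 86 nuclear members matched to a transcript, 27 had a shared run and 8 shared over 50% of runs (Atp5l, Atp5o, Cox5a, Cox7c, Ndufb6, Ndufs3, Ndufs5 and Uqcrc2), which makes their values less certain. For Atp5o that is the second of its 2 rows, which held no reads.

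The members and lists were chosen with earlier results of these data known. Named genes were all mitochondrial-encoded members and, in each nuclear complex, the tested member with the highest mean log2 CPM and those with the largest positive and negative change at a mean log2 CPM of at least 2, plus tissue-restricted isoforms with their common forms, the 4 Sdh genes and Atpif1. From each related list the genes past the threshold were named or, where none passed, the most abundant gene and that with the smallest p. Members named because an alternative called them, their groups did not overlap or their sequence is shared, and Ndufaf2, Ndufaf8, Pprc1 and Ppargc1a, were chosen after their values were seen. Coa1, Fastkd4 and Krt85, listed by name, were not analysed here. A gene that the rule names is not reported here. Alternatives were DESeq2 1.42.0, limma-voom (limma 3.58.1), no TMM, RLE factors, no filter, a fixed filter, no robust option, the replicate number as a block, 3 sets of genes left out, and each library left out; the crossed block was added after seeing the data. Scripts were tested on simulated data.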

Additional observations from a re-analysis of the deposited data

How the results depend on the processing

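The count of mitochondrial-encoded genes past the threshold was 0 and became 1 (mt-Nd6) with DESeq2 and with no filter on low counts. It ranged from 0 to 1 when 1 library was left out. The nuclear count was 0 and ranged from 0 to 2 when 1 library was left out (Atp5e and Uqcrq without DMSO replicate 1; Sdhb among those without DMSO replicate 2). A fit with 1 library in a group assumes that it varies like the other group. Across these fits the median log2 fold change ran from -0.23 to 0.68 for mitochondrial and from -0.09 to 0.39 for nuclear genes, so both medians changed sign. Same-numbered libraries did not deviate together across all tested genes (correlation -0.13 across 11388 genes). This cannot decide whether the numbers pair the samples, since each group gives the correlation a single difference between its replicates. With the replicate number as a block, 0 members passed, the medians were 0.24 (mitochondrial) and 0.10 (nuclear), and 289 of all genes were called instead of 89. With crossed numbers, which were added after seeing the data, 493 were called and 0 members.

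Of 364 values of 31 named genes under alternatives that keep all libraries, 352 kept direction and call, 2 became calls (mt-Nd6) and 10 changed sign, all to values between -0.14 and 0.03. Library sizes without TMM gave -0.06 for mt-Co1, -0.05 for Ndufb8, -0.01 for Sdha, -0.11 for Uqcrh, -0.04 for Cox4i1, -0.02 for Cox7a2 and -0.14 for Sdhd. No filter gave 0.01 for mt-Nd4 and 0.03 for Cox8a, and the replicate block gave 0.00 for Cox5b. Leaving out 1 library changed the sign of 16 named genes. The ranges were -0.27 to 0.80 for mt-Nd1, -0.08 to 1.27 for mt-Nd2, -0.76 to 0.45 for mt-Nd4, -0.11 to 0.73 for mt-Nd5, -0.32 to 0.65 for mt-Cytb, -0.26 to 0.66 for mt-Co1, -0.03 to 0.34 for Ndufb8, -1.72 to 0.68 for Sdhb, -0.62 to 0.43 for Uqcrc2, -0.43 to 0.45 for Cox5b, -0.66 to 0.02 for Atp5h, -0.01 to 0.46 for Cox4i1, -0.06 to 0.61 for Cox7a2, -0.61 to 0.51 for Cox8a, -0.45 to 0.01 for Sdhc and -0.12 to 0.39 for Sdhd. The cause of these changes was not tested. The 18 genes that were not tested had under 10 reads in every library. Why 5 of them, mitochondrial-encoded genes in the stretch described above, were nearly unread was not tested.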
